A study of Homo sapiens with 4 samples.

Results

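The miR-106b-25 cluster, 3 microRNAs cut from 1 primary transcript inside an intron of the gene MCM7, was examined across 4 human oesophageal squamous cell carcinoma lines. Its members, miR-106b (MIMAT0000680), miR-93 (MIMAT0000093) and miR-25 (MIMAT0000081), were picked as a genomic cluster, through their miRBase accessions. They are 3 of the 856 features of the array, and all 3 were present in the table. The arrays held RNA of KYSE-450 and KYSE-520 and of KYSE-890 and KYSE-960, all cultures of tumour cells from the squamous lining of the gullet, grown untreated in medium with 5% serum. Each line was represented by 1 array hybridized with 500 ng of total RNA. No normal tissue, treated culture or second array of a line was analysed, so a difference between lines has no replicate check and no p-value, and holds for these 4 RNA samples.

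A microRNA is a short RNA that guides the Argonaute protein to messenger RNAs and represses them, mainly by pairing through its seed, bases 2 to 8 from the 5′ end. Several microRNAs can be cut by the nuclease Drosha from a common primary transcript as hairpins, which Dicer then trims, and each product is afterwards stabilised or degraded on its own. MCM7 encodes a subunit of the helicase that unwinds DNA at replication origins, and its transcription and that of the cluster rise with E2F activity in dividing cells. The cluster is a paralogue of the miR-17-92 cluster. Between them, its members are known to repress the cell cycle inhibitor p21, the pro-apoptotic protein BIM and components of the E2F circuit itself. Not every member represses each target, and the E2F components are repressed by miR-106b and miR-93.

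The mature sequences show how the 3 members differ. They are given 5′ to 3′ from RefSeq (GRCh38.p14), with the seed in capitals, and all lie on the minus strand: miR-106b (the 5p product, 21 bases, 9 of them G or C) at chr7:100094043-100094063, miR-93 (the 5p product, 23 bases, 12 of them G or C) at chr7:100093815-100093837, and miR-25 (the 3p product, 22 bases, 11 of them G or C) at chr7:100093571-100093592.
miR-106b: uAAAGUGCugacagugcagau
miR-93: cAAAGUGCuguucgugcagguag
miR-25: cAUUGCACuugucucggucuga
miR-106b and miR-93 share their seed and differ by 7 single-base edits. The seed of miR-25 is another one, and this microRNA lies 13 edits from miR-106b and 12 from miR-93. In the direction of transcription the order is miR-106b, miR-93, miR-25, with 205 bases between the mature sequences of miR-106b and miR-93 and 222 between those of miR-93 and miR-25. All 3 hairpin genes lie within the annotated span of MCM7.

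The hairpins of the first and the last member, with the mature sequence in capitals, show that opposite arms were measured: miR-106b occupies bases 12 to 32 of its 82-base hairpin and miR-25 bases 52 to 73 of its 84-base hairpin.
MIR106B hairpin: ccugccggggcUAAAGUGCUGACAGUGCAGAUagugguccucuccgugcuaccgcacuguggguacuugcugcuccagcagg
MIR25 hairpin: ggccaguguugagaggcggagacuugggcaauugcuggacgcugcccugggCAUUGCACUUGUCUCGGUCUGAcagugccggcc

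Close relatives matter because an array probe is designed against a single mature sequence. Of 2370 mature human microRNAs in the RefSeq table, 8 carry the seed of miR-106b and miR-93 and 6 carry that of miR-25. The relatives nearest to the members come from the paralogous clusters on chromosomes 13 and X and are shown with the seed in capitals.
miR-17-5p: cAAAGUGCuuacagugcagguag
miR-106a-5p: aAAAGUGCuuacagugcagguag
miR-20a-5p: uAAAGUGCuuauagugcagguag
miR-20b-5p: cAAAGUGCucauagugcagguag
miR-92a-3p: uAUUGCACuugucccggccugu
miR-93 lies 3 edits from miR-17-5p and from miR-20b-5p. miR-106b lies 5 edits from miR-17-5p, miR-106a-5p and miR-20a-5p, and miR-25 lies 4 edits from miR-92a-3p. The probe sequences were not used here, and cross-hybridization between these relatives was not tested.

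Because the members lie within MCM7, the promoters of that gene were examined. Whether the cluster is transcribed from them in these lines was not tested. RefSeq gives 3 start windows for this gene, each running from 250 bases before to 50 bases after the start. They were searched on both strands for 2 E2F motifs, TTTCGCGC and TTTGGCGC, and for the E-box CACGTG, which MYC-family proteins bind, with no overlap between the motifs. The most upstream window, chr7:100101348-100101647 (GRCh38.p14, minus strand), held TTTCGCGC once and CACGTG once, in capitals here.
MCM7 window: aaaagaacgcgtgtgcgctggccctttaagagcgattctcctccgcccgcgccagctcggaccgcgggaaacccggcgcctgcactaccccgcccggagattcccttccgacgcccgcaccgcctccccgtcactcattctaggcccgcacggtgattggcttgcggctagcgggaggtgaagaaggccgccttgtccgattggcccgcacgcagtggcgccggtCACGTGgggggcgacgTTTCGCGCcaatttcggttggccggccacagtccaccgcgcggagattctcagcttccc
Among all 35116 windows of the table, 0.52% held TTTCGCGC, 0.65% TTTGGCGC and 7.26% CACGTG. The remaining 2 MCM7 windows held none of these letters. These matches are a description of the sequence, and MCM7 messenger RNA was not measured.

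The arrays differed in brightness, which decides how the lines can be compared. Values were treated as scanner intensities on a linear scale with the background left in. The array medians lay between 77.5 and 85.5, whereas the intensities summed over all features ranged from 180682 in KYSE-960 to 349156 in KYSE-520. A feature was called above background on an array when it exceeded the array median by 3 SD, with the SD read from the spread of the dimmer features, which put the threshold between 128.5 and 150 intensity units. By this rule 163 features exceeded background on 1 array or more. Deposited values are given first, followed by values after quantile normalization, which sets the same distribution on every array and so reports a feature's place among the others. Directions were also checked under 9 processing settings in all, which add other scalings, background corrections and floors for dim values to these.

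miR-106b was higher in KYSE-450 and KYSE-520 than in KYSE-890 and KYSE-960. KYSE-450 and KYSE-520 gave deposited intensities of 1488.5 and 1500.5, whereas KYSE-890 gave 118.5 and KYSE-960 gave 227. The value in KYSE-890 was not above background, so only a bound can be given there, and the span from KYSE-520 to KYSE-890 was at least 11.6-fold. After quantile normalization the values in the same sequence were 1062, 869, 153 and 459, and the order of KYSE-450 and KYSE-520 was the only part that turned with the scaling. Their gap in the deposited values was 1.01-fold.

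miR-93 followed the same outline over a smaller range. Its intensities were 1087 for KYSE-450 and 1064 for KYSE-520, against 195.5 for KYSE-890 and 406.5 for KYSE-960, all above background and with a span of 5.56-fold. KYSE-890 was the lowest line in both the deposited and the normalized values. After quantile normalization KYSE-960 stood highest at 1062, followed by KYSE-450 at 775, KYSE-520 at 587 and KYSE-890 at 288.5, so the place of KYSE-960 depended on the scaling.

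miR-25 varied least in the deposited values. The highest value was 760.5 in KYSE-450, followed by 669.5 in KYSE-960, 545.5 in KYSE-520 and 265.5 in KYSE-890, all above background and with a span of 2.86-fold. KYSE-960 lay between KYSE-450 and KYSE-520, where miR-106b and miR-93 had it well below both. After quantile normalization KYSE-960 became the highest line at 2261, ahead of KYSE-450 at 602, KYSE-890 at 550 and KYSE-520 at 337, and the span rose to 6.71-fold. KYSE-890 was thus the lowest line for miR-25 in the deposited values and KYSE-520 after normalization.

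**Figure D1:**
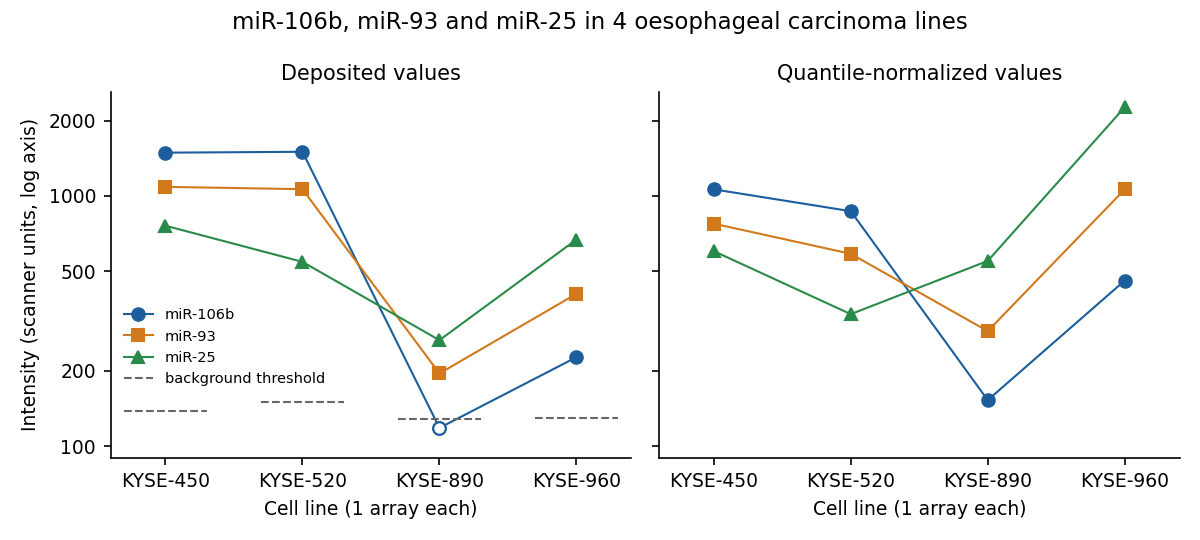
Intensity of miR-106b, miR-93 and miR-25 on the array of each line, as deposited (left) and after quantile normalization (right), on a log axis. Each point is 1 array, dashed bars mark the background threshold, and the open circle is miR-106b in KYSE-890 at 118.5, the only value under it. The lines between points join 1 microRNA, and heights of different microRNAs are not comparable because each has its own probe.

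Ranks within an array do not change under any scaling that keeps the order of its features, and they showed the same divergence. In KYSE-450, miR-106b ranked 28, miR-93 36 and miR-25 48 among the 856 features. In KYSE-520 the ranks were 32, 49 and 64. In KYSE-890 the sequence was turned around, with miR-25 at 51, miR-93 at 70 and miR-106b below all 95 features that exceeded background there. KYSE-960 had the same sequence as KYSE-890 at higher places, with miR-25 at 14, miR-93 at 28 and miR-106b at 54. Put as a share of the 163 features, those brighter than miR-25 were 28.8% in KYSE-450, 38.7% for KYSE-520, 30.7% for KYSE-890 and 7.98% for KYSE-960. For miR-106b they went from 16.6% in KYSE-450 and 19.0% for KYSE-520 to 32.5% for KYSE-960. The place of a feature also depends on its own probe, so what these ranks compare is each microRNA with itself across arrays.

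**Figure D2:**
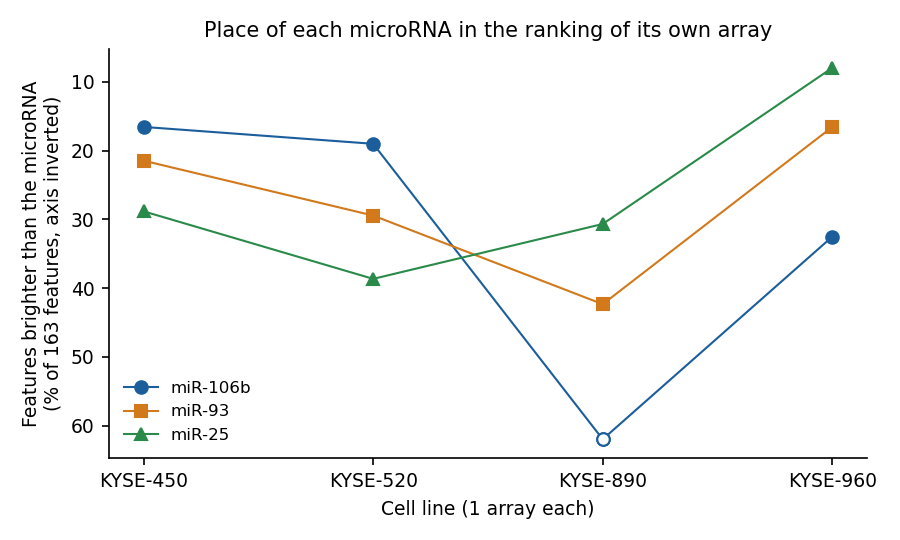
Share of the 163 features that exceeded background on 1 array or more that were brighter than each microRNA on the same array, with the axis inverted so that higher means brighter. The open circle is miR-106b in KYSE-890, which was within background and has no exact rank there. The 3 microRNAs hold the sequence miR-106b, miR-93, miR-25 from top to bottom in KYSE-450 and KYSE-520 and the opposite sequence in KYSE-890 and KYSE-960.

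Between KYSE-450 and KYSE-520, 0 of the 3 members differed by 2-fold in the deposited or the normalized values, where 22.1% and 12.3% of the 163 features did, so with 3 members this count is no result about the cluster. The deposited log2 difference, KYSE-520 minus KYSE-450, was 0.01 for miR-106b, -0.03 for miR-93 and -0.48 for miR-25, beside a median of 0.52 over the 163 features. Only 22.7%, 19.0% and 7.98% of those features had a lower difference. After normalization the members' differences were -0.29, -0.40 and -0.84 and the median feature's was 0.02, with 4.91% of the features lower than miR-25. miR-25 was lower in KYSE-520 than in KYSE-450 under all 9 processing settings, with log2 differences between -0.94 and -0.48.

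KYSE-890 was lower than KYSE-450 and KYSE-520 for miR-106b and miR-93. Against KYSE-450, all 3 members were at least 2-fold lower in the deposited values, where 38.0% of the 163 features were. The median feature's deposited log2 difference was -0.53. The deposited intensity was at least 11.5-fold lower for miR-106b, 5.56-fold lower for miR-93 and 2.86-fold lower for miR-25. After normalization 2 of the 3 passed this mark beside 22.1% of the features, miR-106b at least 5.61-fold and miR-93 2.69-fold lower, while miR-25 differed by 1.09-fold. Against KYSE-520, again 3 of 3 were lower in the deposited values beside a background of 54.6%, and 2 of 3 after normalization beside 28.2%. There miR-106b was at least 11.6-fold lower as deposited and at least 4.59-fold lower after normalization. miR-93 was 5.44-fold and 2.04-fold lower. As deposited, 22.7% of the features had a lower difference than miR-93 and 7.36% a lower one than miR-106b. After normalization these shares were 26.99% and 6.75%. miR-25 was 2.06-fold lower as deposited but 1.63-fold higher after normalization. The median feature's deposited log2 difference from KYSE-520 was -1.10, and 52.15% of the features had a lower difference than miR-25. Under all 9 settings miR-106b and miR-93 were lower in KYSE-890 than in either line. With 3 members, the counts at 2-fold beside shares of this size are no result about the cluster.

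After quantile normalization, KYSE-960 differed from KYSE-450 and KYSE-520 in opposite directions for the 2 ends of the cluster. In the deposited values this held against KYSE-520 but not against KYSE-450. Against KYSE-450, 2 of 3 members were at least 2-fold lower in the deposited values beside 38.7% of the features. These were miR-106b by 6.56-fold and miR-93 by 2.67-fold, with miR-25 1.14-fold lower. The median feature's deposited log2 difference was -0.60. After normalization miR-106b was 2.31-fold lower (1 of 3 members beside 24.5% of the features) and miR-25 was 3.76-fold higher (1 of 3 beside 22.1%). miR-93, 1.37-fold higher after normalization, turned direction between the scalings. Against KYSE-520, 2 of 3 were lower as deposited beside 58.3%, miR-106b by 6.61-fold and miR-93 by 2.62-fold, while miR-25 was 1.23-fold higher. The median feature's deposited log2 difference was -1.18 there. Of the features, 43.56% had a lower difference than miR-93 and 19.63% a lower one than miR-106b. After normalization miR-106b was 1.89-fold lower, under the mark, miR-93 was 1.81-fold higher, and miR-25 was 6.71-fold higher, 1 of 3 members beside 25.2%. With 3 members, counts this near their shares are no result about the cluster. miR-106b was lower in KYSE-960 than in both lines under all 9 settings, and miR-25 was higher in KYSE-960 than in KYSE-520 under all 9, by 0.30 to 2.75 on the log2 scale.

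Between the dimmer arrays, KYSE-890 and KYSE-960, the whole cluster was higher in KYSE-960. All 3 members had this direction under all 9 settings. In the deposited values only 3 of the 163 features, 1.84%, were at least 2-fold higher in KYSE-960, and miR-25 at 2.52-fold and miR-93 at 2.08-fold were 2 of them. miR-106b, whose KYSE-890 value is a bound, was at least 1.75-fold higher. By size of this difference, miR-25 ranked 2 and miR-93 3 among the 163 features, whose median was -0.09 on the log2 scale, and miR-106b ranked 6 with the background threshold as floor. After normalization 3 of 3 members passed the mark beside 11.7% of the features. miR-25 was then 4.11-fold, miR-93 3.68-fold and miR-106b at least 2.43-fold higher, and miR-25 and miR-93 again ranked 2 and 3, with miR-106b at 7 on that floor. Over the 9 settings the ranks ran from 2 to 8 for miR-25 and from 3 to 12 for miR-93. The lowest places of miR-25 and miR-93 came with the array median subtracted as background.

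**Figure D3:**
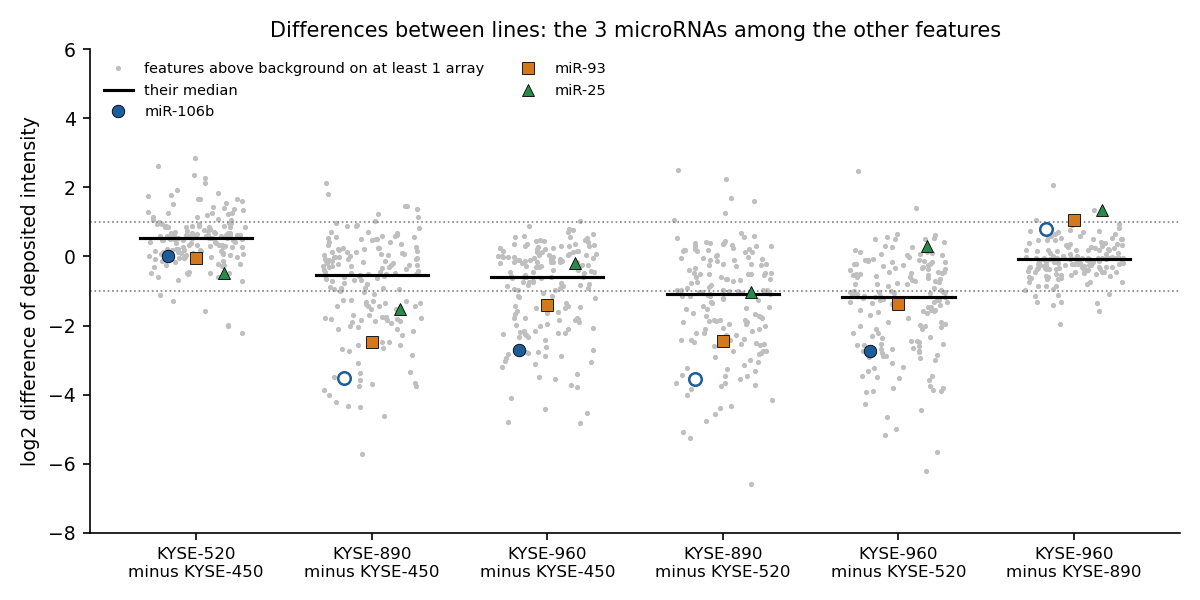
Differences between lines in the deposited log2 intensity for the 163 features that exceeded background on 1 array or more (grey), their median (black bar) and the 3 microRNAs of the cluster, for each of the 6 pairs of lines. Dotted lines mark 2-fold. In the comparison of KYSE-960 with KYSE-890 miR-93 and miR-25 lie at 1.06 and 1.33, near the top of the features, and the open circle for miR-106b stands for a difference of at least 0.81. Open circles mark bounds, drawn where miR-106b in KYSE-890 enters the difference. In the 4 comparisons in the middle of the plot the 3 microRNAs fan out with miR-106b lowest and miR-25 highest.

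The members' changes can be set against each other without choosing a scaling factor, because a factor common to an array cancels in the difference between 2 of its features. From KYSE-450 to KYSE-960, where all 6 values were above background, the deposited change of miR-25 exceeded that of miR-106b by 2.53 on the log2 scale, which is 5.77-fold. Of this, 1.29 lay between miR-106b and miR-93 and 1.24 between miR-93 and miR-25. From KYSE-520 to KYSE-960 the same contrast was 3.02, or 8.11-fold, split into 1.34 and 1.68. For KYSE-890, with miR-106b at its bound, miR-25 exceeded miR-106b by at least 4.01-fold from KYSE-450 and at least 5.64-fold from KYSE-520. Settings that only multiply an array by a factor leave these contrasts unchanged, so the 9 settings are not 9 separate checks. The order of change was miR-106b lowest, miR-93 between and miR-25 highest in these 4 pairs, which reuse the same arrays, under all 9 settings. This order matches that of the members along the transcript, which is 1 of several properties in which the 3 differ. A link to position was not tested.

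Within the other 2 pairs the contrast between miR-25 and miR-106b was as follows. From KYSE-450 to KYSE-520 it was -0.49 in the deposited values, or 1.41-fold, and stayed between -0.57 and -0.49 over the settings. From KYSE-890 to KYSE-960 only an upper bound can be given, since miR-106b in KYSE-890 was within background, and this was 0.52 in the deposited and 0.76 in the normalized values. Non-linear settings changed the larger contrasts. Quantile normalization raised the KYSE-520 to KYSE-960 contrast to 3.67, and over the 9 settings it ran from 3.02 to 3.67. For KYSE-450 to KYSE-960 the range was 2.53 to 3.12.

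**Figure D4:**
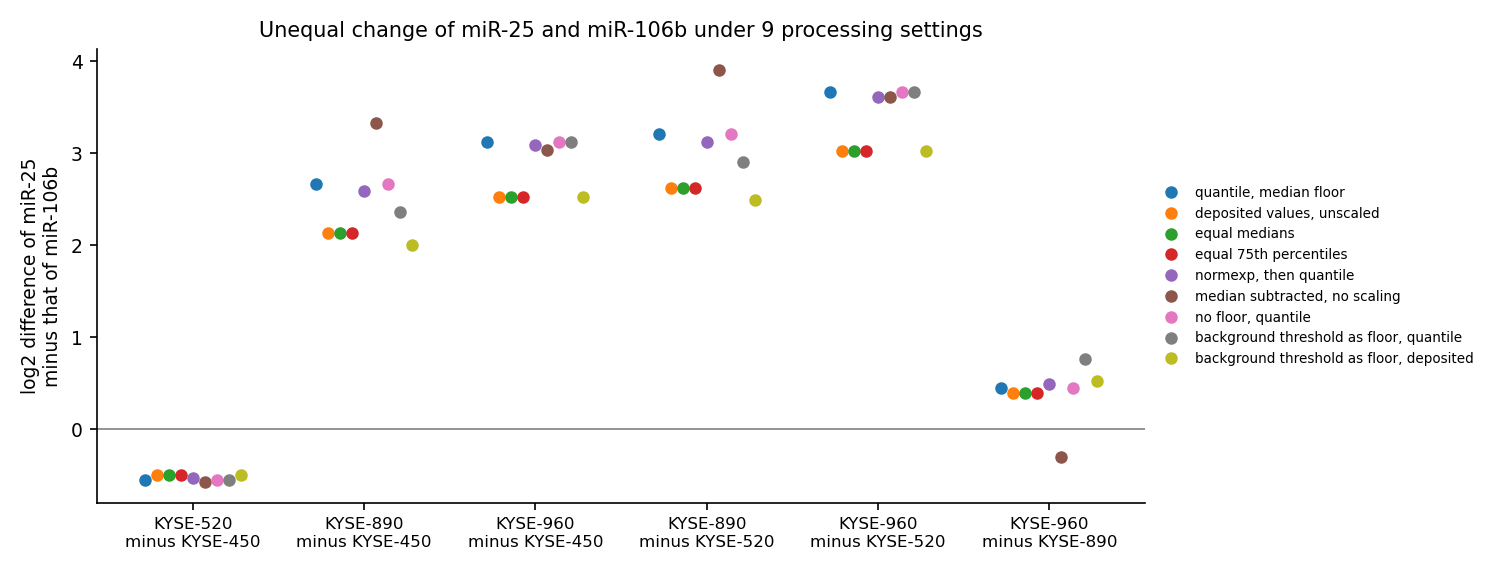
Change of miR-25 minus change of miR-106b on the log2 scale for the 6 pairs of lines, with 1 point for each of the 9 processing settings. Settings that differ only by a factor per array give equal values. The 4 pairs in the middle lie between 2.0 and 3.90, and the pairs at either end lie between -0.57 and 0.76. In the 3 pairs with KYSE-890 the settings with the background threshold as floor give bounds, and the others use a miR-106b value not above background.

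The members were not each other's nearest features in their profiles over the lines. Likeness was measured as the root mean square difference between line profiles over the 4 arrays, each feature centred on its own mean of log2 normalized values, among the features that exceeded background on 1 array or more. It was 0.79 between miR-106b and miR-93, 0.81 between miR-93 and miR-25 and 1.60 between miR-106b and miR-25. Of the 162 features compared with miR-106b, miR-93 ranked 32 and miR-25 ranked 130, and the median distance was 1.11. For miR-25, miR-93 ranked 30 and miR-106b 132. For miR-93, miR-106b ranked 53 and miR-25 58. In the deposited values miR-93 ranked 20 and miR-25 ranked 85 for miR-106b. Of 18 alternative ranks between members, 7 stayed within 1.5 times the main rank. These include ranks among the 75 features above background on every array, a smaller set. The distances from miR-106b use its KYSE-890 value, which was not above background.

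The feature most like miR-106b was MIMAT0000682, at a distance of 0.10, with intensities of 1079.5 and 1058 for KYSE-450 and KYSE-520, 95.5 for KYSE-890 and 158 for KYSE-960. Both this feature and miR-106b were not above background in KYSE-890. It was also the nearest in the deposited values, at 0.08. It was not the nearest with the array median subtracted, at 0.30, and among the 75 features above background on every array, where it does not count, the nearest lay at 0.19. For miR-93 the nearest was MIMAT0000267, at 0.32, with 206, 335, 106.5 and 152 in the same order of lines. For miR-25 it was MIMAT0005947, at 0.39, with 1010.5, 1042, 292.5 and 487. The nearest features of miR-93 and miR-25 changed when the deposited values were used. The tables used for names hold none of the array's accessions (0 matches), so these features are given by accession.

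For the same reason the paralogous clusters, the opposite arms of the 3 hairpins and the microRNA markers of squamous, columnar and non-epithelial cell types could not be matched to features. Their values are not given, and the labelled cell type was not checked against markers. In RNA from whole cultures, fewer cells with a microRNA and less of it per cell cannot be told apart.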

How the data were processed

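The authors deposited 1 intensity per feature and array for 856 features and 4 arrays. Per the labels' protocols, total RNA was labelled with Hy5 and hybridized to a human microRNA oligonucleotide chip that was read on a ProScanArray scanner. Spot averaging, background handling and scaling are not given in the sources consulted. The deposited intensities were treated as linear with the background left in, and 1 array per line limits the precision.

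The cluster was defined by its genomic locus, and it and the lists were chosen with earlier results of these data known. Quantile normalization used limma 3.58.1 under R 4.3.3, and values were raised to a floor at the array median and taken to log2. This left 713 features at or above the floor on at least 1 array. The dim-side SD is the distance from the array median to the 16th percentile. A fold against a value not above background is a bound from the dimmest feature above background on that array. No test was run, since each line has 1 array, and differences of at least 2-fold were counted. Shares refer to the 163 features that exceeded background on 1 array or more, since few features at background on every array passed 2-fold. The fold calculation was tested on arrays simulated from a common mean profile. Brightness differences like those between the deposited arrays were not simulated, so the test does not bear on the choice of scaling. The 9 settings are the main one and 8 alternatives of scaling, background correction and floor. Named features were the members and, by rule, the features nearest in line profile, of which 1 per member is printed. Sequences are from RefSeq tables (GRCh38.p14), matched by microRNA name for all 3 members.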

Additional observations from a re-analysis of the deposited data

How the results depend on the processing

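Of 60 counts of members at least 2-fold apart in a pair of lines, 49 stayed within 1.5 times the main count. This rule treats 2 and 3 as the same. The main counts were 0 for KYSE-450 with KYSE-520, 3 for KYSE-890 with KYSE-960, and 2 for KYSE-450 against either KYSE-890 or KYSE-960. KYSE-520 had 2 against KYSE-890 and 1 against KYSE-960. This last count was 2 in the deposited values under both floors, with equal medians and with the array median subtracted, and 3 at a threshold of 1.5-fold. That threshold gave 1 between KYSE-450 and KYSE-520. With equal 75th percentiles KYSE-520 had 1 against KYSE-890. In the deposited values under both floors KYSE-890 had 3 against KYSE-450, 3 against KYSE-520 and 2 against KYSE-960. At 4-fold, which can only keep or lower a count, KYSE-890 had 1 against each of the other lines, and KYSE-450 had 0 against KYSE-960. The spread between the members stayed on its side of 2-fold in all 48 alternative values. A factor per array cancels in this spread, so settings that differ only by such factors had to give the same value. No member lay under an array median, so leaving out that floor could not change the spread either. The background threshold as floor could change it only in pairs with KYSE-890. Of the log2 differences of single members, 18 of 144 alternatives had the opposite sign to the main value. For miR-25, KYSE-960 minus KYSE-450 was 1.91 in the main setting, -0.18 in deposited values under both floors and -0.20 with the median subtracted. KYSE-890 minus KYSE-520 was 0.71, then -1.04 in deposited values, -0.17 with equal medians and -1.31 with the median subtracted. For miR-93, KYSE-960 minus KYSE-450 was 0.46, then -1.42, -1.01 and -1.62 in the same settings, and KYSE-960 minus KYSE-520 was 0.85, then -1.39, -0.57 and -1.57. For miR-106b, KYSE-520 minus KYSE-450 was -0.29, then 0.012 in deposited values under both floors and 0.0054 with the median subtracted. The causes of these changes were not tested. After seeing the data, the ranking by profile with the median subtracted was added. No paired analysis was possible because no group holds 2 arrays. Dim signal limits miR-106b in KYSE-890.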
